A study of Mus musculus with 24 samples.

Results

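The miR-200 family of miRNAs was examined in lungs of SP-C/c-raf transgenic and wild type mice. The family was taken as the 5 mature strands that the array calls mmu-miR-200a, mmu-miR-200b, mmu-miR-429, mmu-miR-200c and mmu-miR-141, chosen by name and not by their values, out of 611 mouse miRNAs on the array. All 5 were on the array, 4 of them were detected on at least 6 of the 24 arrays and were tested among 120 such miRNAs, and miR-141 was not. Wild type males and females are called M WT and F WT, and transgenic males and females M c-Raf and F c-Raf, with 6 mice and 6 arrays in each of the 4 groups, 1 mouse per array. All mice were 4 to 6 months old. In the transgenic mice the surfactant protein C promoter, which is active in the distal lung epithelium, drives c-Raf-1-BxB, an active c-Raf kinase that lacks its amino-terminal part. The methods describe total RNA from cells cut by laser from frozen lung sections, and the labels do not say which cells were taken. Elsewhere the paper speaks of RNA extracts from lungs, so the source of the array RNA is not certain. The tissue label reads lung adenocarcinoma for all 24 samples, WT included, although the protocol calls the tissue of the WT mice normal lung. The strain of the mice is not given in the sources used here.

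The miR-200 family is known for its expression in epithelial cells, where its members repress the transcription factors Zeb1 and Zeb2 and thereby help to keep E-cadherin and other epithelial genes on. Loss of the family accompanies the epithelial to mesenchymal transition. A miRNA pairs with its targets mainly through the seed near its 5′ end, so members with the same seed have largely the same predicted targets.

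The mature sequences are given here because the seed divides the family into the groups by which the values below can be read. All 5 were matched in RefSeq by name (assembly GRCm38.p6), are written 5′ to 3′, and have the seed, bases 2 to 8, in capitals. All 5 lie on the minus strand of their chromosome, and the array design itself is on an earlier mouse build.
miR-200b, chr4:156055685-156055706: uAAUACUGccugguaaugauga
miR-429, chr4:156053916-156053937: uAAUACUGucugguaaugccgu
miR-200a, chr4:156054911-156054932: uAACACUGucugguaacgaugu
miR-200c, chr6:124718324-124718346: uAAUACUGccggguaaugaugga
miR-141, chr6:124717917-124717938: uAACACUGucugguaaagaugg

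The seed AAUACUG was shared by miR-200b, miR-429 and miR-200c and by no other of the 1679 mature mouse sequences in the table, and AACACUG by miR-200a and miR-141 alone. The seeds of the 2 groups differed at 1 base. Position does not follow the seed. The hairpins of miR-200b, miR-200a and miR-429 lay within 1846 bases on chromosome 4, and those of miR-200c and miR-141 within 477 bases on chromosome 6. Across the first 22 bases, miR-200b and miR-200c differed at 2 positions, as did miR-200a and miR-141, while miR-200c differed from miR-429 at 5 without any difference in the seed. The array reads each member with probes of its own, and how far the probes of 1 member also bind another of such similar sequence was not tested.

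Levels are given as log2 scaled intensity. Each spot was divided by the brightness of its array, which is the 75th percentile over the spots of the 27 miRNAs detected on all 24 arrays, so that 0 is the brightness and each step of 1 doubles the signal. Values under 0.01 were set to 0.01, a floor of -6.64 on this scale, before each miRNA was summarised by the median of its 20 spots. Brightness ran from 34.9 to 1212 intensity units and the number of mouse miRNAs detected from 38 to 179, both on arrays of the M c-Raf group. Log2 brightness was 8.35 ± 1.82 in M c-Raf against 7.17 ± 0.83 in M WT (SD, n = 6, exact two-sided permutation p = 0.186), and 7.65 ± 0.73 in F c-Raf against 7.88 ± 1.15 in F WT (exact p = 0.688). The replicate number was the slide, every one of the 6 slides carried the 4 groups once and in the same order, and so position on the slide and group cannot be told apart. In such RNA, fewer epithelial cells and less of a miRNA per cell cannot be told apart either.

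Which members could be seen at all depended on the array. miR-200b and miR-200c were detected on 24 of 24 arrays. miR-429 was detected on 13 arrays, 9 of the 12 c-Raf and 4 of the 12 WT arrays, and miR-200a on 11, 9 c-Raf and 2 WT. On the dimmest array with either of them the brightness was 175.3 units. miR-141 was detected on 1 array, M c-Raf replicate 4, which was the brightest of all. Its median over the spots lay at the floor on all 6 arrays of the M c-Raf and F WT groups, on 5 M WT arrays and on 4 F c-Raf arrays, so no difference is given for it.

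**Figure D1:**
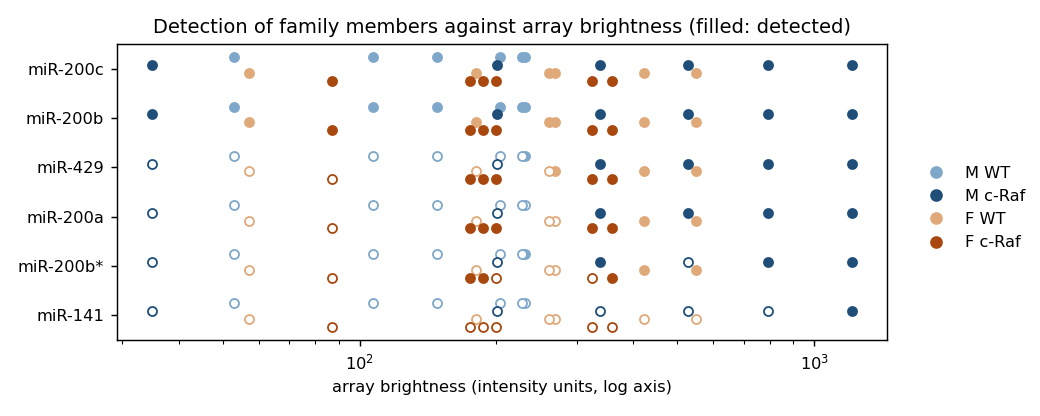
Detection of 6 family miRNAs (rows) on each of the 24 arrays against the brightness of the array in intensity units, on a log axis. Filled points are arrays on which the miRNA was detected, open points arrays on which it was not, and colours are the 4 groups; miR-200b and miR-200c were detected everywhere, miR-429 and miR-200a on no array dimmer than 175.3 units, and miR-141 on the brightest array alone.

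miR-200b, the member of the chromosome 4 cluster that was detected on every array, ran from -2.95 to -1.70 in M c-Raf (median -2.51) and from -5.62 to -2.60 in M WT (median -2.93). In F c-Raf it ran from -2.22 to -1.16 (median -1.79) and in F WT from -2.83 to -1.98 (median -2.48). The groups overlapped in both sexes, and the lowest value of all was that of M WT replicate 4, far under the other 5 M WT arrays, which lay between -3.04 and -2.60. The group means were -2.48 ± 0.44 in M c-Raf against -3.32 ± 1.14 in M WT, and -1.79 ± 0.37 in F c-Raf against -2.45 ± 0.29 in F WT (SD, n = 6 each).

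miR-429 has the same seed as miR-200b. It ran from -4.72 to -4.15 in M c-Raf (median -4.32) and from the floor to -4.38 in M WT (median -4.62), where replicate 4 was again the lowest. In F c-Raf it ran from -4.06 to -2.87 (median -3.81) and in F WT from -4.76 to -4.27 (median -4.57). Every F c-Raf array was thus above every F WT array, while the male groups overlapped. The means were -4.35 ± 0.20, -4.93 ± 0.85, -3.68 ± 0.41 and -4.55 ± 0.17 (SD, n = 6) in M c-Raf, M WT, F c-Raf and F WT.

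miR-200a has the other seed and lay at or near the floor on many arrays. It ran from the floor to -5.14 in M c-Raf (median -5.62), and 4 of the 6 M WT arrays were at the floor, with the highest at -5.27. In F c-Raf it ran from -5.09 to -4.72 (median -4.91), and in F WT from the floor to -5.01 (median -5.85). It was detected on 4 M c-Raf, 5 F c-Raf, 2 F WT and 0 M WT arrays, so its M WT values are only a bound, and no fold is given for males because the bound, -3.32 as a mean over the M WT arrays, exceeded the M c-Raf mean. The means were -5.74 ± 0.53, -6.28 ± 0.59, -4.91 ± 0.17 and -5.82 ± 0.64 (SD, n = 6) in M c-Raf, M WT, F c-Raf and F WT.

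miR-200c lies in the other cluster. It ran from -1.09 to 0.67 in M c-Raf (median -0.50) and from -1.28 to 0.22 in M WT (median -0.33). In F c-Raf it ran from -0.36 to 0.49 (median 0.15) and in F WT from -0.75 to 0.36 (median -0.31). Its groups overlapped in both sexes, and the 2 male means, -0.40 ± 0.65 and -0.44 ± 0.51 (SD, n = 6), differed by far less than either SD. The female means were 0.13 ± 0.30 in F c-Raf against -0.29 ± 0.37 in F WT.

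**Figure D2:**
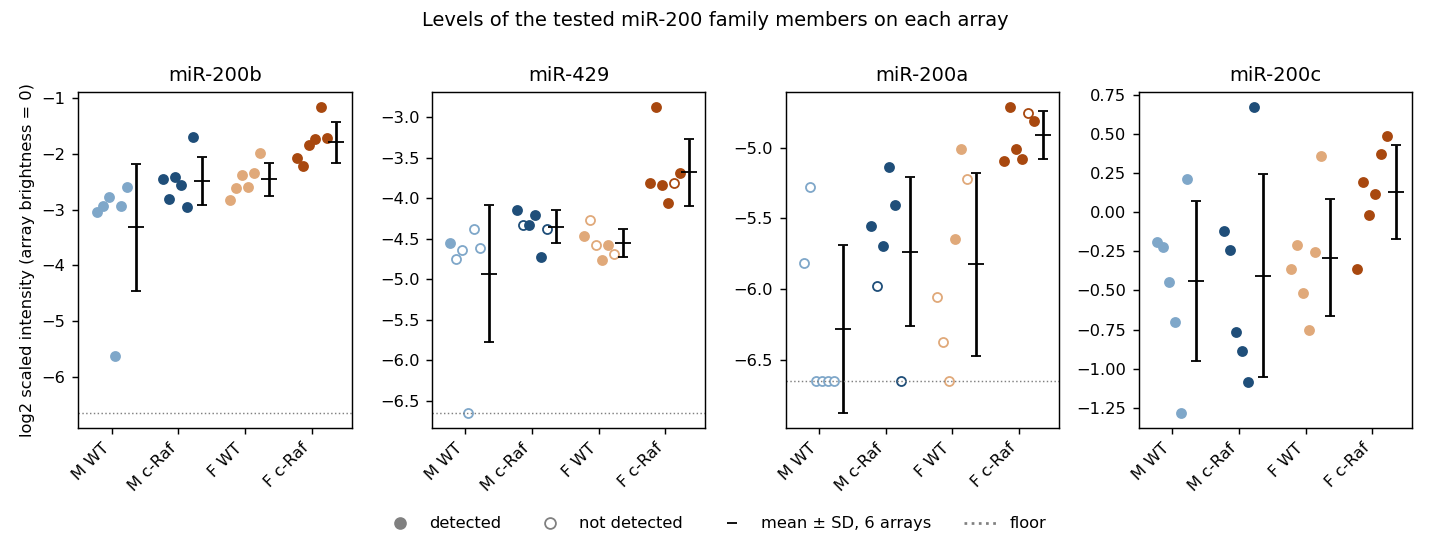
Log2 scaled intensity of the 4 tested members (panels, each with its own axis) on each array, by group. Filled points were detected and open points were not, bars show the mean ± SD of 6 arrays, and the dotted line is the floor at -6.64; all 6 F c-Raf points of miR-429 lie above all 6 F WT points, and M WT replicate 4 stands at -5.62 for miR-200b and at the floor for miR-429.

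The study set array platforms against each other and asked which miRNAs differ between c-Raf and WT lungs, and the second question is taken up here. Over both sexes together, 3 of the 4 tested members were up-regulated in c-Raf lungs, miR-429, miR-200a and miR-200b, while 18.3% of all 120 tested miRNAs passed the same threshold and 12.5% passed it in the upward direction. Of these, miR-200a and miR-429 passed the filter on detection through the c-Raf arrays, with 9 c-Raf arrays each and 2 and 4 WT arrays, so the count over the tested members is a description. miR-429 was higher by 0.73 on the log2 scale (SE 0.20, 95% interval 0.32 to 1.14, limma adjusted p = 0.0180), which is 1.66-fold. miR-200a was higher by 0.73 (SE 0.21, interval 0.30 to 1.16, limma adjusted p = 0.0217), a value that rests in part on the M WT arrays, where it is only a bound. miR-200b was higher by 0.75 (SE 0.26, interval 0.21 to 1.29, limma adjusted p = 0.0482), or 1.68-fold. For miR-200c the difference was 0.23 (SE 0.19, interval -0.17 to 0.63, limma adjusted p = 0.461), an interval that includes 0 and reaches up to 1.55-fold. The median difference of the 4 members was 0.73, against 0.09 over the 120 miRNAs, of which 15 were called higher and 7 lower (5.83%). Scaled by the percentile over all non-control spots 3 were called higher and 0 lower, by quantiles 7 and 5, and for the total gene signal 6 and 8. All 4 members had a positive difference, as did 55% of all miRNAs, and 3 had an unadjusted p under 0.05, as did 31.7%.

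The 3 calls did not all rest on the same footing. miR-429 and miR-200a kept theirs in all 24 fits that left out 1 array, with adjusted p between 0.00171 and 0.0444. Such fits cannot test the WT values of these 2, which were detected on 4 and 2 WT arrays. They therefore do not place the 2 above miR-200b, which was detected on every array. On M WT replicate 4, however, miR-200b was near background, with 2 of 10 spots of its brighter probe and 0 of its dimmer probe well above it. miR-200b kept its call in 8 of those fits, and without M WT replicate 4 its difference fell to 0.52 while the adjusted p was 0.0180. With the floor set after the median over spots in place of before it, the limma adjusted p of miR-200b was 0.0507. Under the percentile over all spots, under no scaling, and in the deposited table, the differences of the 3 members were between 1.14 and 1.58 while no member was called, and the median over all tested miRNAs also moved, to between 0.56 and 0.61. Relative to that median the 3 members were 0.55 to 0.98 higher under those 3 settings, against 0.64 to 0.66 in the values given above. With the floor raised to each array's lowest signal well above background, the differences of miR-200a and miR-429 were -0.46 and -0.06, and the median over all tested miRNAs was -0.44.

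In males 0 of the 4 members were called, against 2.5% of all miRNAs, and 1 had an unadjusted p under 0.05, as did 20.8% of all miRNAs. All 4 fitted differences were positive, where 57.5% of all were. That of miR-200a was taken from undetected M WT values. Against the bound of -3.32 that difference was -2.42, so its direction in males is not known. The difference between M c-Raf and M WT was 0.83 for miR-200b (SE 0.37, limma adjusted p = 0.186), 0.58 for miR-429 (SE 0.28, limma adjusted p = 0.203, detected on 1 M WT array) and 0.03 for miR-200c (SE 0.27, limma adjusted p = 0.971). For miR-200a, not detected in M WT, the limma adjusted p was 0.250. The values of miR-200b and miR-429 moved with 1 array, and without M WT replicate 4 miR-200b differed by 0.37 and miR-429 by 0.24. The median over all 120 miRNAs was 0.13.

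In females 0 of the 4 members were called either, against 5% of all miRNAs, and 2 had an unadjusted p under 0.05, as did 14.2% of all. All 4 differences were positive, where 52.5% of all were. The difference between F c-Raf and F WT was 0.91 for miR-200a (SE 0.29, limma adjusted p = 0.0766), 0.88 for miR-429 (SE 0.28, limma adjusted p = 0.0766), 0.67 for miR-200b (SE 0.37, limma adjusted p = 0.414) and 0.42 for miR-200c (SE 0.27, limma adjusted p = 0.485). miR-429 was the only member whose female groups did not overlap, and 2.5% of the 120 miRNAs had female groups without overlap. With the slide as a block miR-429 was called in females (limma adjusted p = 0.0431), as it was with the scan as a block (adjusted p = 0.0333) and with the 12 female arrays fitted alone (adjusted p = 0.0211). Without F WT replicate 5, on which miR-200a was the highest of its group, the female difference of miR-200a was 1.08 and was called (limma adjusted p = 0.0246). However, miR-429 was detected on 5 F c-Raf and 3 F WT arrays, and miR-200a on 5 and 2, with F WT replicate 5 among the 2. Such refits cannot test the undetected F WT values, so their calls are a description. The median of the members was 0.77, and of all 120 miRNAs 0.03.

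**Figure D3:**
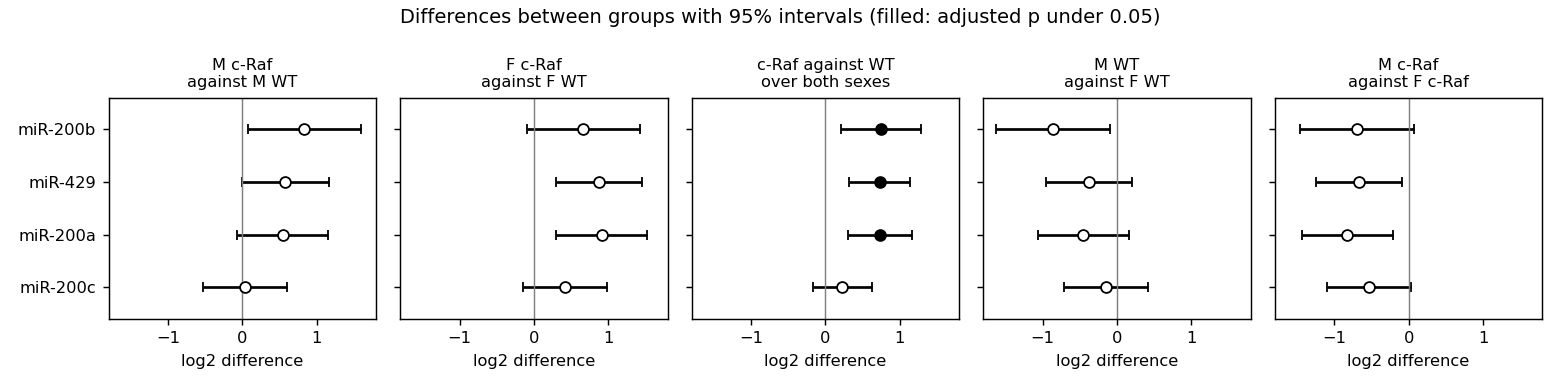
Differences between groups on the log2 scale for the 4 tested members, with 95% intervals from the limma fit over 24 arrays. Filled points had an adjusted p under 0.05; only miR-200b, miR-429 and miR-200a over both sexes did, and every interval of miR-200c includes 0. The points of miR-200a that involve M WT rest on values that are only a bound there.

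The size of the c-Raf effect in males was not shown to differ from that in females. The male minus the female effect was 0.17 for miR-200b (SE 0.52), -0.30 for miR-429 (SE 0.40) and -0.39 for miR-200c (SE 0.39), each with a limma adjusted p of 0.872 or 0.930 (0.872 for miR-200a, whose male effect has no measured size), and 0 of 120 miRNAs were called (0%), with 5 at an unadjusted p under 0.05. It was positive for 1 member, and for 52.5% of all miRNAs. For miR-200b the sign turned without M WT replicate 4, to -0.29. The intervals are wide: that of miR-429 ran from -1.12 to 0.53.

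Between the sexes 0 members were called in either genotype. All 4 had lower means in males among c-Raf mice, although with no scaling between arrays the sign turned there for miR-200b, miR-429 and miR-200c (0.00, 0.03 and 0.16). Among WT mice miR-200b, miR-429 and miR-200c had lower means in males, and the direction of miR-200a is not known because its M WT values are only a bound. Among c-Raf mice, M minus F was -0.82 for miR-200a (SE 0.29, limma adjusted p = 0.206), -0.69 for miR-200b (SE 0.37, adjusted p = 0.617), -0.67 for miR-429 (SE 0.28, adjusted p = 0.344) and -0.54 for miR-200c (SE 0.27, adjusted p = 0.617). Every M c-Raf array was below every F c-Raf array for miR-200a and miR-429, where 4.17% of the 120 miRNAs had groups without overlap and 2.5% were called. With no scaling the difference of miR-200a was -0.13. Among WT mice, M minus F was -0.86 for miR-200b (SE 0.37, limma adjusted p = 0.496), -0.37 for miR-429 and -0.15 for miR-200c, with no size given for miR-200a, and 0% of all miRNAs were called. An unadjusted p under 0.05 was found for 1 member among WT mice (9.17% of all miRNAs) and for 2 among c-Raf mice (8.33%). Without M WT replicate 4 the WT difference of miR-200b was -0.40. The difference was positive for 40% of all miRNAs among WT mice and for 42.5% among c-Raf mice. These comparisons share groups with those of c-Raf against WT.

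Ordered by mean, F c-Raf was the highest group and M WT the lowest for miR-200b, miR-429 and miR-200c, with M c-Raf and F WT between them. For miR-200a F c-Raf was the highest of the groups other than M WT, whose values are only a bound and have no place in the order. Outside the family, miR-21, miR-342-3p and miR-30a, taken up below, also had F c-Raf highest and M WT lowest. For miR-200b M c-Raf and F WT stood at -2.48 and -2.45, and for miR-200a at -5.74 and -5.82, less than their SD apart. For miR-429 M c-Raf was above F WT, at -4.35 and -4.55, and for miR-200c below it, at -0.40 and -0.29, with overlapping arrays in both cases.

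Since each slide held all 4 groups, the comparison can also be read within slides. The c-Raf minus WT difference, averaged over the sexes, was positive on 6 of 6 slides for each of the 4 tested members. The share of all tested miRNAs that were positive on 6 of 6 slides is not given, here or within a sex. The slide counts are therefore a description. Among all tested miRNAs, 55% had a positive fitted difference over both sexes, and miR-200c, which was not called, also reached 6 of 6. The difference averaged over the sexes ran from 0.27 to 1.96 for miR-200b, from 0.21 to 1.57 for miR-429 and from 0.04 to 0.41 for miR-200c. For miR-200a it ran from 0.21 to 1.29, in part against undetected M WT values. The highest values for miR-200b and miR-429 came from slide 4, the slide of M WT replicate 4. In females alone the difference was positive on 6 of 6 slides for miR-429 (0.65 to 1.40), miR-200b (0.28 to 1.18) and miR-200a (0.26 to 1.66), and on 5 of 6 for miR-200c (-0.0014 to 0.87). In males it was positive on 5 of 6 slides for miR-200b (-0.03 to 3.06) and for miR-429 (-0.34 to 2.44), and on 3 of 6 for miR-200c (-0.32 to 0.46). Over both sexes the limma adjusted p with the slide as a block was 0.0109 for miR-429, 0.0244 for miR-200a, 0.0319 for miR-200b and 0.253 for miR-200c. Within the 4 scans the difference over both sexes was 1.57, 0.41, 0.53 and 0.72 for miR-429 in scans 1 to 4, and 1.96, 0.58, 0.67 and 0.36 for miR-200b. It was 1.03, 0.48, 0.61 and 0.88 for miR-200a. Scan 1 held slide 4 alone.

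**Figure D4:**
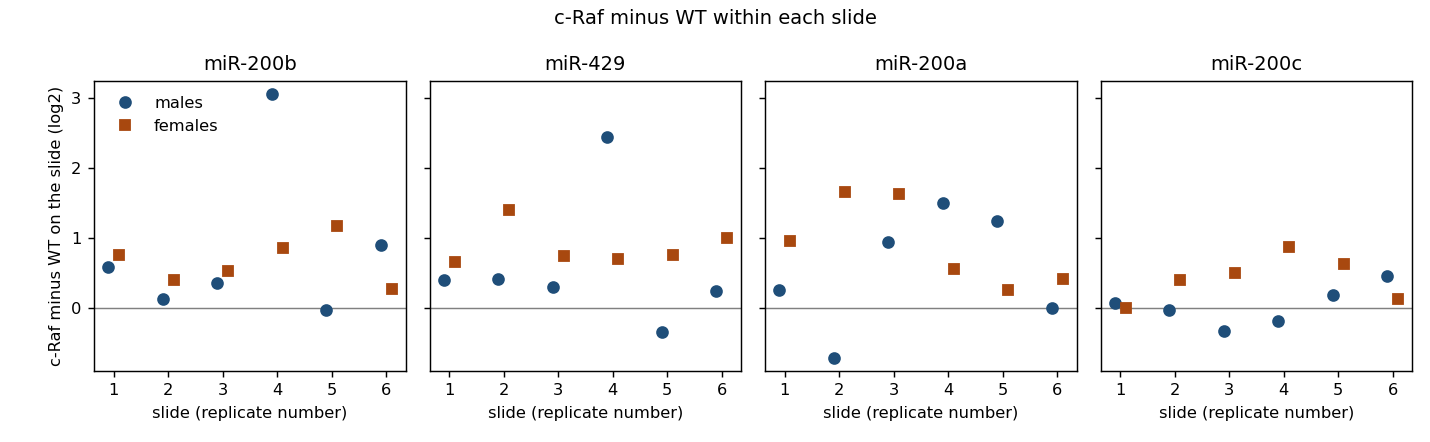
The c-Raf minus WT difference on each slide (log2), in males (circles) and females (squares), for the 4 tested members. On slide 4 the male difference was 3.06 for miR-200b and 2.44 for miR-429, against at most 0.90 and 0.42 on the other slides.

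The probes of 1 member did not all give the same signal. Each of the 5 members was read by 2 probes of 10 spots each, and the median over 20 spots lies between them. The brighter probe exceeded the dimmer by a median factor of 10.2 for miR-200c and 9.57 for miR-200b over the 24 arrays, although the dimmer probe of miR-200b was well above background on 8 of them, while the 2 probes of miR-429 were nearly equal at 1.09. No factor is given for miR-200a, whose dimmer probe was well above background on 1 array. From the brighter probes alone, miR-200a differed by 0.90 over both sexes, miR-429 by 0.85, miR-200b by 0.74 and miR-200c by 0.30, with limma adjusted p of 5.96e-04, 0.00321, 0.00280 and 0.275. On the brighter probes miR-200a, miR-200b and miR-429 each had F c-Raf arrays that were all above the F WT arrays, where 4.17% of the 120 miRNAs had female groups without overlap, and 0 of the 4 members had male groups without overlap (3.33% of the 120). miR-200a ran there from -4.51 to -3.77 in F c-Raf and from -5.47 to -4.59 in F WT, and miR-200b from -1.13 to -0.14 and from -1.97 to -1.18. From the dimmer probes miR-200a differed by 0.13, miR-429 by 0.62 and miR-200b by 0.74, and 0 members were called (adjusted p 0.670, 0.0734 and 0.0509). The brighter probe of miR-200a was well above background on 9 arrays, among WT arrays only on F WT replicates 4 and 5. Its differences, p and lack of overlap on that probe thus rest on mostly undetected WT values and are a description. With spots marked as outliers by the software left out, miR-200b differed by 0.06 over both sexes and was not called (limma adjusted p = 0.998), while miR-429 and miR-200a differed by 0.75 and 0.76.

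The passenger strands, named with a star on this array, gave little signal. miR-200a*, miR-200c* and miR-141* were detected on 0 of 24 arrays. miR-200b* was detected on 9 arrays, 6 c-Raf and 3 WT, and so was tested. However, 1 of its 4 probes held the signal, and the median over its 20 spots was at the floor on all 24 arrays, so it has no measured difference.

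Brightness and the levels are not independent measures. Each level is a signal divided by brightness, so a negative r can come in part from the scaling itself. miR-200b and miR-200c, detected on all 24 arrays, were also among the miRNAs whose spots set the brightness. The permutation p-values below take level and brightness as independent, so they cannot show whether brightness moved with any member. Over the 24 arrays, log2 brightness and the level of miR-200c had Pearson r = -0.588 (permutation p = 0.0024, adjusted over the 4 members 0.0096). Spearman rho was -0.556 (permutation p = 0.00532). With the 2 arrays of the most extreme brightness left out r was -0.435, and within scans 2 and 4, of 8 arrays each, it was -0.740 and -0.553. Scans 1 and 3 had too few arrays. For miR-200a, miR-200b and miR-429 r was 0.31, 0.07 and 0.23 (adjusted p 0.285, 0.739 and 0.375). With log2 brightness as a covariate the difference over both sexes was 0.36 for miR-200c (limma adjusted p = 0.0948), 0.68 for miR-429 (0.0254), 0.65 for miR-200a (0.0309) and 0.77 for miR-200b (0.0561). The part of brightness in the differences was not tested further.

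The members moved together to unequal degrees. Over the 24 arrays, which share the scaling of each array, r was 0.81 between miR-200b and miR-429, 0.56 between miR-200a and miR-429, 0.55 between miR-200b and miR-200c, 0.50 between miR-200a and miR-200b, 0.38 between miR-429 and miR-200c and 0.27 between miR-200a and miR-200c. These values include M WT replicate 4, the lowest array for miR-200b and miR-429. By ranks the pairs lay closer together, with Spearman rho of 0.62, 0.56, 0.61, 0.55, 0.41 and 0.34 in the same order. The 3 miRNAs outside the family most like the mean of its 4 tested members were miR-21, miR-342-3p and miR-30a, with r of 0.937, 0.833 and 0.80, and of 0.841, 0.740 and 0.719 within groups. They were picked for following a mean that was itself higher in c-Raf lungs, so their differences are a description and no test of them is given. miR-21, a miRNA often raised in tumours, ran from -1.95 to 0.01 in F c-Raf and from -4.23 to -2.33 in F WT, and from -3.72 to -2.65 in M c-Raf and from -6.54 to -3.72 in M WT. The c-Raf minus WT difference over both sexes was 1.79 for miR-21 (SE 0.31), 0.51 for miR-342-3p (SE 0.15) and 0.50 for miR-30a (SE 0.16). Without M WT replicate 4, the lowest array in each, r was 0.929 for miR-21, still first of 116 miRNAs, and 0.686 and 0.636 for miR-342-3p and miR-30a.

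**Figure D5:**
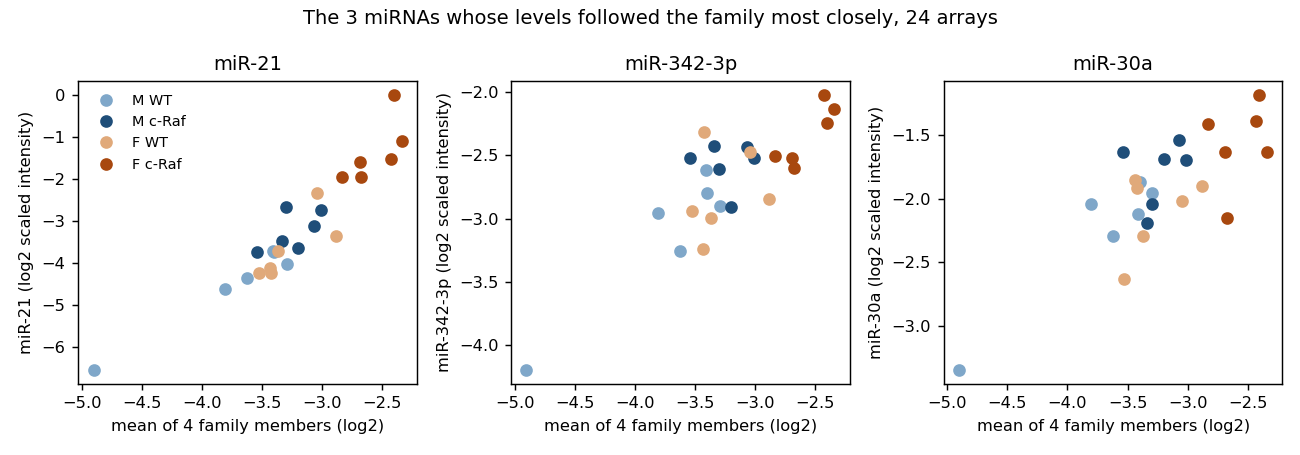
Level of miR-21, miR-342-3p and miR-30a on each of the 24 arrays against the mean log2 scaled intensity of the 4 tested family members, coloured by group. miR-21 follows the family mean from M WT replicate 4, at the lower left, to the F c-Raf arrays at the upper right; the other 2 spread more widely once that array is left aside.

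Other miRNAs that mark epithelial cells did not pass the test with the family. Of 13 such miRNAs on the array (the miR-183 cluster, miR-203, miR-205, miR-375 and the miR-34b/c and miR-449 groups), 8 were detected on at least 1 array, 6 were tested and 0 were called in any of the 6 comparisons. Their median difference over both sexes was 0.13, and that of miR-183 was the largest at 0.55 (SE 0.19, limma adjusted p = 0.05003). The summed scaled level of the 6 ran on the log2 scale from -2.71 to -2.23 in M c-Raf, -3.26 to -1.89 in M WT, -2.43 to -1.61 in F c-Raf and -2.52 to -1.68 in F WT, with overlap in both sexes.

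Markers of other cells moved as well. Of 7 miRNAs of smooth muscle and mesenchymal cells 6 were on the array and were detected at least once, 3 were tested, and miR-214 alone was called, lower in c-Raf by 0.86 over both sexes (difference -0.86, SE 0.14, limma adjusted p = 1.53e-04), by 1.03 in males (-1.03, adjusted p = 0.00297) and by 0.69 in females (-0.69, adjusted p = 0.0338). In each sex 1.67% of all miRNAs were called lower. The other 2, miR-199a-3p and miR-199b*, had positive differences of 0.21 and 0.40 over both sexes (limma adjusted p = 0.293 and 0.286), and the median of the 3 was 0.21. Of 2 endothelial miRNAs miR-126-5p was not detected on any array and miR-126-3p was tested, and was higher over both sexes by 0.75 (SE 0.21, limma adjusted p = 0.0217), close to the values of miR-200b, miR-429 and miR-200a. Of 3 erythroid miRNAs 2 were detected and tested, and miR-486 was lower over both sexes (-1.10, limma adjusted p = 0.00213) and in males (-1.41, adjusted p = 0.0161), while miR-451 had differences of 0.38 over both sexes (adjusted p = 0.389) and 0.64 in males (adjusted p = 0.305). Of 5 leukocyte miRNAs 3 were detected and tested, and 0 were called. The summed level of the 3 mesenchymal miRNAs ran from -2.19 to -1.84 in M c-Raf and -1.82 to -1.11 in M WT, without overlap although the male differences of miR-199a-3p and miR-199b* were 0.30 and 0.48, and from -2.13 to -1.85 in F c-Raf and -2.14 to -1.49 in F WT. That of miR-126-3p ran from -2.41 to -1.15 in M c-Raf, -4.07 to -1.67 in M WT, -1.86 to -0.97 in F c-Raf and -2.23 to -1.71 in F WT. The summed level of the erythroid miRNAs ran from -3.44 to -2.52, -3.32 to -0.97, -3.44 to -2.42 and -3.16 to -2.10 in the same 4 groups, and that of the leukocyte miRNAs from -4.20 to -2.46, -4.36 to -2.91, -4.24 to -3.40 and -4.38 to -3.83. The part of a changed mix of cells in the differences of the family was not tested.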

How the data were processed

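Total RNA of 24 mouse lungs was labelled with Cy3 and hybridised to Agilent mouse miRNA arrays. The deposited scanner files hold the background-subtracted intensity of each spot, made by the authors with Agilent Feature Extraction (10.7.3.1 per the file headers), without scaling between arrays. A second deposited table holds processed intensities, a linear median over spots scaled to the 75th percentile, in which 99.6% to 100% of the values of each array lay within 1% of that product of the scanner values. Its scale and direction are thus known, it was not centred, and its column medians ran from 299.1 to 2273; it served as an alternative.

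Control spots were left out and 0 non-control spots were saturated. Spots were divided by the brightness of the array, set to the floor of 0.01, and summarised by the median and log2. Detection is the software's flag, also deposited, 0 or 1 per miRNA and array, besides other flags of the spots. Linear models from limma 3.58.1 (R 4.3.3; two-sided moderated tests by lmFit with eBayes, 20 residual and 1.80 prior degrees of freedom) were fitted to all 24 arrays with 1 mean per group, adjusted by Benjamini-Hochberg over 120 miRNAs and called at an adjusted p under 0.05; the normalisation over the detected miRNAs was used because most miRNAs were not detected. Brightness was compared by exact permutation tests, and correlations used 100000 resamples. In simulated data for M c-Raf against M WT on 119 miRNAs, 10 miRNAs were changed at each size. Of log2 changes of 1, 50% were called, of 2, 90% and of 3, 100%, with 0 false calls. Changes under 1 and the comparison over both sexes were not simulated.

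The members, the marker lists and the tests were chosen with earlier results of these data known. Named are the 5 members and their star forms, the 3 tested miRNAs most like their mean, and markers that were called; miR-183, miR-126-5p, miR-199a-3p, miR-199b* and miR-451 were named after their values were seen. Replicates are separate mice per the labels, and the precision is limited by 6 arrays per group. Alternatives were other scalings, floors, summaries, filters, blocks, weights, normexp with an offset of 50 on the median (not mean) spot signal, the deposited table, the methods' t-test and leaving out each array. All table columns were matched to arrays (0 not used).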

Additional observations from a re-analysis of the deposited data

Results flagged for a closer look

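The rule for an array that stands apart flags about 1 in 20 groups of independent, normally distributed values. Groups wholly at the floor cannot be flagged, and miRNAs read on 1 array are not independent, so that rate does not apply here. In 56 groups of 6 values examined, 1 array stood apart from the other 5 in 7 cases. M WT replicate 4 was such an array for 4 miRNAs, at the low end: miR-200b at -5.62 (the others -3.04 to -2.60), miR-429 at -6.64, the floor (the others -4.74 to -4.38), miR-21 at -6.54 (the others -4.60 to -3.72) and miR-30a at -3.34 (the others -2.29 to -1.87). Its brightness was 52.8 intensity units and 71 mouse miRNAs were detected on it. On the brighter probe of miR-200b alone it was at -2.88, where M WT ran up to -1.35. F c-Raf replicate 2 was the highest of its group for miR-429 at -2.87 (the others -4.06 to -3.69). In M WT, replicate 2 was above the floor for miR-141 at -5.83 and replicate 5 for miR-200c* at -5.73, with the other 5 arrays at the floor in both cases and neither miRNA detected there.

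miR-141, which was not tested, was detected on 1 array, M c-Raf replicate 4, and on 0 of the 12 WT arrays. That array had a brightness of 1212 units, and on the next brightest array, of 792.0 units, miR-141 was not detected.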

How the results depend on the processing

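The direction of miR-200b and miR-200c over both sexes was the same under all 23 alternatives beside leaving out 1 array, as it was for miR-429 and miR-200a except where stated. miR-429 was called in 12 of them, miR-200a in 13 of the 21 that gave it a value, miR-200b in 10 and miR-200c in 0. At a floor of 0.1 miR-200a was at the floor on all arrays, and it was detected on fewer than 12. The fits on the brighter or dimmer probes, with brightness as a covariate, with log2 taken before the median, with the floor set after it, without miRNAs at the floor on all arrays and without M WT replicate 4 and F WT replicate 5 together were chosen after seeing the data. The causes were not tested.

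Counts of called miRNAs over both sexes (22 in all, 3 members) became 1 and 0 with no scaling, 3 and 0 under the percentile over every spot that is no control, 12 and 1 under quantile normalization, 9 and 1 at a floor of 0.1, 1 and 0 at the floor of lowest signal well above background, 4 and 0 on the dimmer probes, 7 and 0 without the filter on detection, 0 and 0 under normexp, in the deposited table and in the methods' t-test with Benjamini-Hochberg, and 14 in all for the total gene signal. At the methods' own threshold, of p, fold and mean signal together, that t-test called 11 miRNAs in M c-Raf against M WT, 3 in the female comparison, 5 with the sexes pooled, 1 between the WT groups and 2 between the c-Raf groups, and no member. With the floor set after the median the counts were 18 and 2, and with log2 taken before the median 16 and 2. Leaving out 1 array gave 14 to 24 and 2 to 3.

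In males (3 in all, 0 members) the count was 1 under the percentile over all spots, the total gene signal, no filter on detection and the 2 groups alone, 0 with no scaling, quantile normalization, the raised floor, the deposited table, normexp and the t-test, 7 with the scan as a block, 6 with array weights and 6 on the brighter probes, where 1 member, miR-200a, was called. The brighter probe of miR-200a was not well above background on any M WT array. Leaving out 1 array gave 1 to 7 and 0 to 0.

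In females (6 in all, 0 members) it was 0 under the percentile over all spots, no scaling, the deposited table, normexp and the t-test, 2 under quantile normalization, without the filter and with detection on at least 12 arrays, 1 at both raised floors and on the dimmer probes, and 3 for the total gene signal. It was 3 with the 2 groups alone (1 member), 10 with the replicate block (1 member), 11 with array weights (3 members) and 11 without M WT replicate 4 and F WT replicate 5 together (3 members). It was 4 with outlier spots left out, 9 with the scan as a block, 8 on the brighter probes and 7 with brightness as a covariate, each with 1 member. Leaving out 1 array gave 2 to 7 and 0 to 1.

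For M c-Raf against F c-Raf (3 in all, 0 members) it was 0 under the percentile over all spots, no scaling, the total gene signal, the deposited table, normexp and the t-test, 1 at both raised floors, without the filter, with detection on at least 12 arrays and on the dimmer probes, 7 with array weights and 6 without those 2 arrays, the last 2 each with 2 members, miR-200b and miR-429. Leaving out 1 array gave 1 to 3 and 0 to 0. For the male minus the female effect (0 in all) it was 3 with array weights and 3 without those 2 arrays, with 0 to 2 on leaving out 1 array. For M WT against F WT it was 0 throughout, also on leaving out 1 array (0 to 0).

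The replicate block, the slide, changed the call of miR-429 in females and of no other member: over both sexes 28 miRNAs and 3 members were called with it, in males 3 and 0, and for M c-Raf against F c-Raf 4 and 0. The labels do not say that a replicate number marks a slide, and 2 to 4 of the 6 pairs per comparison had a correlation over 0.1.

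Signs turned as follows. In the male minus the female effect, miR-200a, miR-429 and miR-200c were 1.04, 0.48 and 0.19 under the percentile over all spots, 1.03, 1.11 and 1.01 with no scaling and 0.90, 0.57 and 0.28 in the deposited table. miR-200a was 0.07 under quantile normalization, 0.13 for the total gene signal and 0.34 on the brighter probes. miR-200b was -0.15 at a floor of 0.1, -0.39 at the raised floor, -1.05 under normexp, -0.41 with array weights, -0.22 on the brighter and -0.33 on the dimmer probes, -0.32 without the 2 arrays, and -0.29 to 0.31 on leaving out 1. In males miR-200a and miR-429 were -0.91 and -0.40 at the raised floor, and miR-200a, miR-200b, miR-429 and miR-200c -0.79, -0.43, -0.67 and -0.22 under normexp. miR-200c was -0.0055 for the total gene signal, -0.13 with outlier spots left out, -0.31 with array weights, -0.020 without the 2 arrays, and -0.18 to 0.17 on leaving out 1. miR-200a was -0.086 on the dimmer probes. In females miR-200a was -0.0020 at the raised floor. Over both sexes miR-200a and miR-429 were -0.46 and -0.058 at the raised floor, and miR-200a -0.028 under normexp. Between M WT and F WT, miR-200a and miR-429 were 0.71 and 0.49 at the raised floor, and miR-200a, miR-200b, miR-429 and miR-200c 0.48, 0.21, 0.44 and 0.067 under normexp. miR-200c was 0.17 with outlier spots left out, 0.14 with array weights and -0.28 to 0.022 on leaving out 1 array, and miR-200a 0.065 on the dimmer probes. For M c-Raf minus F c-Raf, miR-200b, miR-429 and miR-200c were 0.0022, 0.027 and 0.16 with no scaling, and miR-200a 0.051 in the t-test. Depth limits the dim members: at the floor, 0.01 of the brightness, an array reads 0.349 to 12.1 intensity units.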
